A study of Mus musculus with 25 samples.

Results

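Crosslink events of the splicing factor SRSF7 were examined in 5 genes for heterogeneous nuclear ribonucleoproteins: Hnrnpa2b1, Hnrnph1, Hnrnpa1, Hnrnpk and Ptbp1. The genes were chosen by name, and their members are the events on the gene's own strand within fixed regions of mouse genome build mm9. These regions were chr6:51408001-51422000 on the minus strand for Hnrnpa2b1, chr11:50188001-50202000 on the plus strand for Hnrnph1, chr15:103068001-103080000 on the plus strand for Hnrnpa1, chr13:58485001-58510000 on the minus strand for Hnrnpk and chr10:79315001-79330000 on the plus strand for Ptbp1. They were 5 of 505023 regions in all, the others being windows of 5000 nt on 1 strand that held an event in any library. No annotation of mm9 was used here, so positions are given by coordinate and not as exon, intron or untranslated region.

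The proteins made by these genes bind RNA and act on its splicing. hnRNP A1 and hnRNP A2/B1 are closely related proteins that often favour exon skipping, hnRNP H1 binds runs of G, hnRNP K binds C-rich RNA, and PTBP1 binds pyrimidine-rich RNA and represses many exons, among them neuronal ones. Many genes of this family, like those of the SR proteins to which SRSF7 belongs, carry highly conserved exons or introns whose alternative splicing sends the transcript to nonsense-mediated decay, and in this way proteins of both families adjust their own and each other's levels. SRSF7 itself has an RNA recognition motif, a zinc knuckle and a tail rich in arginine and serine.

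All libraries came from P19, a mouse embryonal carcinoma cell line. In iCLIP, cells are irradiated with UV light, the protein is immunoprecipitated with the RNA crosslinked to it, and the end of each cDNA marks the crosslinked nucleotide. Each such cDNA is called an event here. Precipitation was with anti-EGFP from cells that express SRSF7-GFP (called WT here, libraries 2, 3 and 4), SRSF7mutZn-GFP (the zinc knuckle mutant, called mutZn, libraries 3 and 4) or SRSF7D27aa-GFP (a deletion, called D27aa, libraries 1 and 2), with 1 library of each protein made without UV. The anti-SRSF7 libraries were GFP_OE (3 and 4), endo_OE (4 and 5) and RRM_OE (3 and 4), all labelled with the genotype SRSF7-GFP OE, and endo_WT 1 from cells labelled WT, with 1 library without UV and 1 without antibody. A variant of the method, piCLIP, gave mono_IP and poly_IP libraries (1 and 2 of each) and 1 library titled IgG for each, all from SRSF7-GFP OE cells. The GFP proteins were made on top of the cells' own SRSF7, and the labels do not say whether a line was 1 clone. The design text calls the replicates biological, but the file headers give WT 3 and WT 4 the same replicate number. Where libraries of a group did not come from separate cultures, p-values measure only the spread between those libraries.

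Depth differed widely between groups. WT libraries held 221746, 1099389 and 3952779 events, mutZn libraries 11782376 and 6436730, and D27aa libraries 376870 and 388768. The no-UV libraries of these proteins had 34947 to 89070 events, the piCLIP immunoprecipitates 18357 to 52553, and the anti-SRSF7 libraries 17763 to 471705. WT 2 stood apart from WT 3 and WT 4. Over the 140 bins of 100 nt in Hnrnph1, its profile had a Pearson r of 0.923 and 0.906 with the D27aa libraries but 0.731 and 0.771 with WT 3 and WT 4, which had an r of 0.965 with each other. Bins of 1 locus share its library and depth, so these correlations are descriptions. Per the file headers, WT 2 carried the same library identifier as D27aa 1. Libraries that share an identifier are called 1 run, or sequencing run, here. The identifier itself does not state that they were sequenced together. WT 2 was also the shallowest of the 7 anti-EGFP libraries made with UV. The part of depth or run in its profile was not tested, and results that changed without this library are given both ways.

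Hnrnpa2b1 and Hnrnph1 carried most of the SRSF7 events of the 5 genes. The 5 loci together held 0.150% to 0.179% of all events in the 7 anti-EGFP UV libraries. In Hnrnpa2b1 there were 131, 641 and 2421 events in WT 2, 3 and 4, 9264 and 5078 in mutZn 3 and 4, and 244 and 235 in D27aa 1 and 2. Hnrnph1 had 118, 562 and 2068 events in the WT libraries, 5333 and 2947 in mutZn, and 214 and 222 in D27aa. Hnrnpa1 ranged from 32 events in WT 2 to 2020 in mutZn 3, Hnrnpk from 27 to 2150, and Ptbp1 from 25 to 2204, each with its lowest number in WT 2 and its highest in mutZn 3.

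Levels are given in CPM, the events in a gene per 1000000 events of the library. Per kilobase of region, the median CPM over the 7 libraries was 43.8 for Hnrnpa2b1 (range 41.7 to 56.4), 37.4 for Hnrnph1 (32.4 to 40.8), 14.1 for Hnrnpa1 (11.5 to 15.1), 9.29 for Ptbp1 (7.52 to 12.5) and 6.52 for Hnrnpk (4.88 to 7.30). The ranges of Hnrnpa2b1 and Hnrnph1 did not overlap, and both lay above all values of the other genes. Hnrnpa1 and Ptbp1 overlapped, whereas Ptbp1 and Hnrnpk did not. These regions include flanking sequence in differing amounts, and the levels are not corrected for the abundance of each transcript.

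Events also lay in these genes in the libraries made without UV. Hnrnpa2b1 had 809 CPM without UV for WT (72 events, exact 95% binomial interval 633 to 1019), 810.3 for mutZn (54 events, 609 to 1057) and 487 for D27aa (17 events, 284 to 779). Hnrnph1 had 494, 675 and 430 CPM in the same order, from 44, 45 and 15 events. Ptbp1 had 56.2, 180.1 and 143 CPM, from 5, 12 and 5 events, Hnrnpa1 had 6 to 13 events and Hnrnpk 6 to 13. The no-UV libraries were far shallower, and intervals cover counting error only. Of the nucleotides hit in the 5 loci without UV, 62.8% of 145 for WT, 54.6% of 130 for mutZn and 56.2% of 48 for D27aa were also hit in mutZn 3, the deepest library. For Hnrnpa2b1 the no-UV interval of WT lay above all 3 WT libraries made with UV. For Hnrnph1 the no-UV interval of mutZn (493 to 903 CPM) lay above both mutZn libraries, and for Ptbp1 that of WT (18.2 to 131) lay below WT 3 and WT 4. Without the nucleotides hit in no-UV libraries, the bin test described below called 33, 9 and 16 bins in mutZn against WT, D27aa against WT and mutZn against D27aa.

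**Figure D1:**
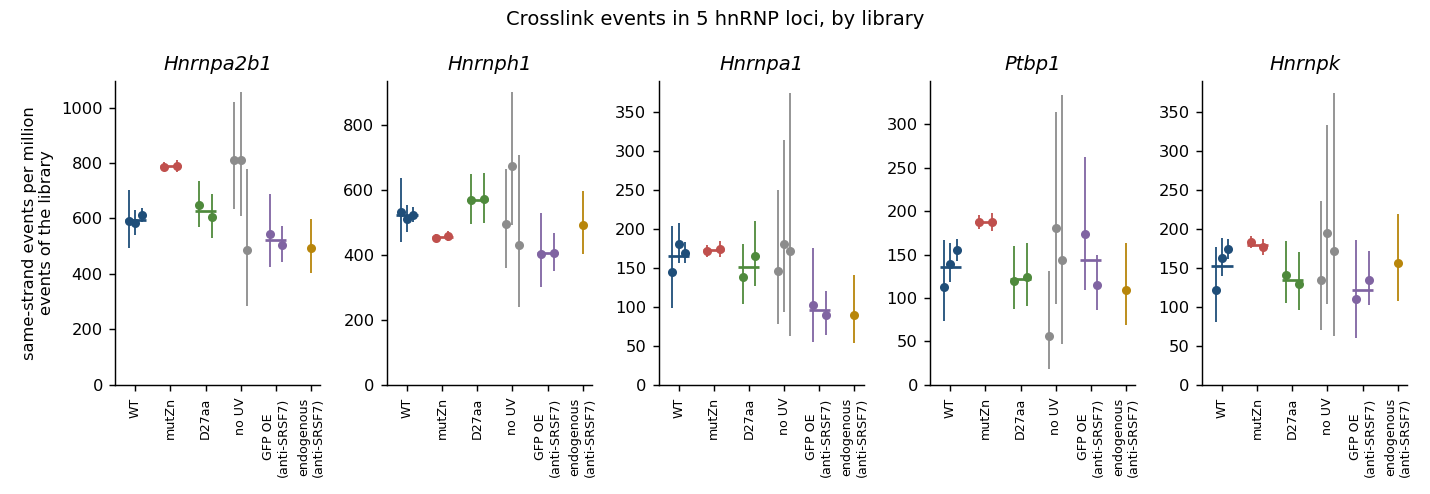
Level in CPM (vertical axis) in each of the 5 hnRNP loci, 1 panel per gene, for WT, mutZn, D27aa, the 3 no-UV libraries, GFP_OE and endo_WT. Dots are libraries with exact 95% binomial intervals and lines are group means (none for no UV). Hnrnpa2b1 lay at 584 to 613 in the 3 WT libraries and at 787 and 790 in the 2 mutZn libraries.

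Setting mutZn against WT addresses the zinc knuckle of SRSF7. Hnrnpa2b1 and Ptbp1 took a larger share of events in mutZn than in WT. Hnrnpa2b1 had 591, 584 and 613 CPM in WT 2, 3 and 4, and 787 and 790 in mutZn 3 and 4. No WT library reached the mutZn level. The means were 596.0 ± 15.2 (SD, n = 3) and 788.1 ± 1.91 (SD, n = 2), and the locus rose by 0.37 ± 0.12 on the log2 scale (SE of the fit; adjusted p = 0.0185). Ptbp1 had 113, 139 and 155 CPM in WT and 187.2 and 187.3 in mutZn, again without overlap, and rose by 0.32 ± 0.10 (SE; adjusted p = 0.0216). Adjusted p-values for loci come from a negative binomial quasi-likelihood test moderated with limma over all 36165 loci and windows tested, of which 19.4% passed the threshold of 0.05. The 2 of 5 genes that rose are to be read against the 9.66% of all loci and windows that rose. Without UV, mutZn stood at 810.3 CPM in Hnrnpa2b1 and 180.1 in Ptbp1, with intervals that included its UV libraries. The part of background in the rise was not tested.

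The other 3 genes did not pass in this fit. Hnrnph1 had 533, 512 and 524 CPM in WT and 453 and 458 in mutZn, which did not overlap, with a log2 difference of -0.21 ± 0.11 (SE; adjusted p = 0.191). It passed in 4 of 14 alternative settings, among them with limma-voom (-0.21, adjusted p = 0.00199), without WT 2 (-0.22, adjusted p = 0.0244) and with each nucleotide counted once (-0.63, adjusted p = 0.0216). Hnrnpk had 122, 163 and 174 CPM in WT and 183 and 176 in mutZn, which did not overlap, and gave 0.08 ± 0.10 (SE; adjusted p = 0.611). Hnrnpa1 gave -0.0033 ± 0.10 (adjusted p = 0.988), with 144.5, 181 and 169 CPM in WT against 172 and 174 in mutZn. For Hnrnpa1 the ranges overlapped.

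The calls for Hnrnpa2b1 and Ptbp1 were lost when WT 3, WT 4, mutZn 3 or mutZn 4 was left out, with log2 fold changes from 0.30 to 0.49 and adjusted p from 0.164 to 0.656, and with the sequencing run as a block (0.39 and 0.32, adjusted p = 0.263 and 0.187). They were also lost with median-of-ratios scaling (adjusted p = 0.0884 and 0.123) and with no filter on low features. Without WT 2, both calls held. Within the run that held WT 3, WT 4 and mutZn 4, Hnrnpa2b1 stood at 584 and 613 against 790 CPM and Ptbp1 at 139 and 155 against 187. When each crosslinked nucleotide was counted once whatever its number of events, Hnrnpa2b1 turned to -0.37 (adjusted p = 0.241) and Ptbp1 dropped to 0.14 (adjusted p = 0.597). Events per nucleotide hit in Hnrnpa2b1 were 1.10, 1.19 and 1.58 in WT 2, 3 and 4 against 2.72 and 2.07 in the deeper mutZn libraries.

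In D27aa against WT, 0 of the 5 loci passed. Hnrnpa2b1 had 648 and 605 CPM in D27aa 1 and 2 (627 ± 30.4, SD, n = 2), with a log2 difference from WT of 0.16 ± 0.18 (SE; adjusted p = 0.788). Hnrnph1 had 568 and 572, above all 3 WT libraries, and the difference was 0.23 ± 0.17 (adjusted p = 0.637). Hnrnpk was at 141 and 129 CPM and Ptbp1 at 119.5 and 124, each within the WT range, and Hnrnpa1 was at 138 and 165, the first of them below the WT libraries. Of all loci and windows, 2.3% passed. None of the 5 genes had an unadjusted p under 0.05, and limma-voom called none.

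Between mutZn and D27aa, again 0 of 5 loci passed, against 2.37% of all loci and windows. Hnrnph1 gave -0.44 ± 0.17 (SE; adjusted p = 0.219) and Ptbp1 gave 0.51 ± 0.22 (SE; adjusted p = 0.247). These 2 genes had an unadjusted p under 0.05 and were the 2 that limma-voom called, at adjusted p of 0.000464 and 0.0354. The comparisons with WT share its libraries, and this one shares libraries with each of them.

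Events also shifted between positions within the genes. Each locus was cut into bins of 100 nt, and the share of the locus in a bin was tested between groups, which sets aside the level of the locus. Of 800 bins, 102 had enough events to be tested: 45 in Hnrnpa2b1, 33 in Hnrnph1, 11 in Hnrnpa1, 7 in Ptbp1 and 6 in Hnrnpk. In mutZn against WT, 29 of the 102 bins passed, 10 with a larger and 19 with a smaller share in mutZn, where 9.25% of all 8656 bins tested in the genome passed (2.84% higher and 6.41% lower). In D27aa against WT, 11 of 102 passed (7 higher and 4 lower) where 4.29% of all bins did (2.62% higher and 1.66% lower). In mutZn against D27aa, 16 of 102 passed (5 higher and 11 lower) where 9.81% of all bins did (3.08% higher and 6.72% lower). Bins of 1 locus are not independent, since their shares add up to the whole.

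These counts moved with the libraries used. For mutZn against WT, 35 bins passed without WT 2, 18 without WT 3, 8 without WT 4, 7 without mutZn 3 and 15 without mutZn 4, and 7 with the sequencing run as a block. For D27aa against WT the numbers were 15, 5 and 1 without WT 2, 3 and 4, 1 and 3 without D27aa 1 and 2, and 1 with the run as a block. Without D27aa 1 or 2, mutZn against D27aa gave 3 and 5 bins, and 2 with the run as a block. All 29, 11 and 16 bins kept their direction with the run as a block. With each nucleotide counted once, 3, 0 and 8 bins passed, of which 3, 0 and 6 were among the bins called here. The diffSplice test of limma, which the design had planned for bins, called 41, 8 and 11 bins, of which 26, 5 and 5 were among those called here. All 3 of these settings are named beside a bin below where they ended its call, unless only a number of settings is given. The Ptbp1 bin at 79321701 is an exception, and no alternative settings are given for it.

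**Figure D2:**
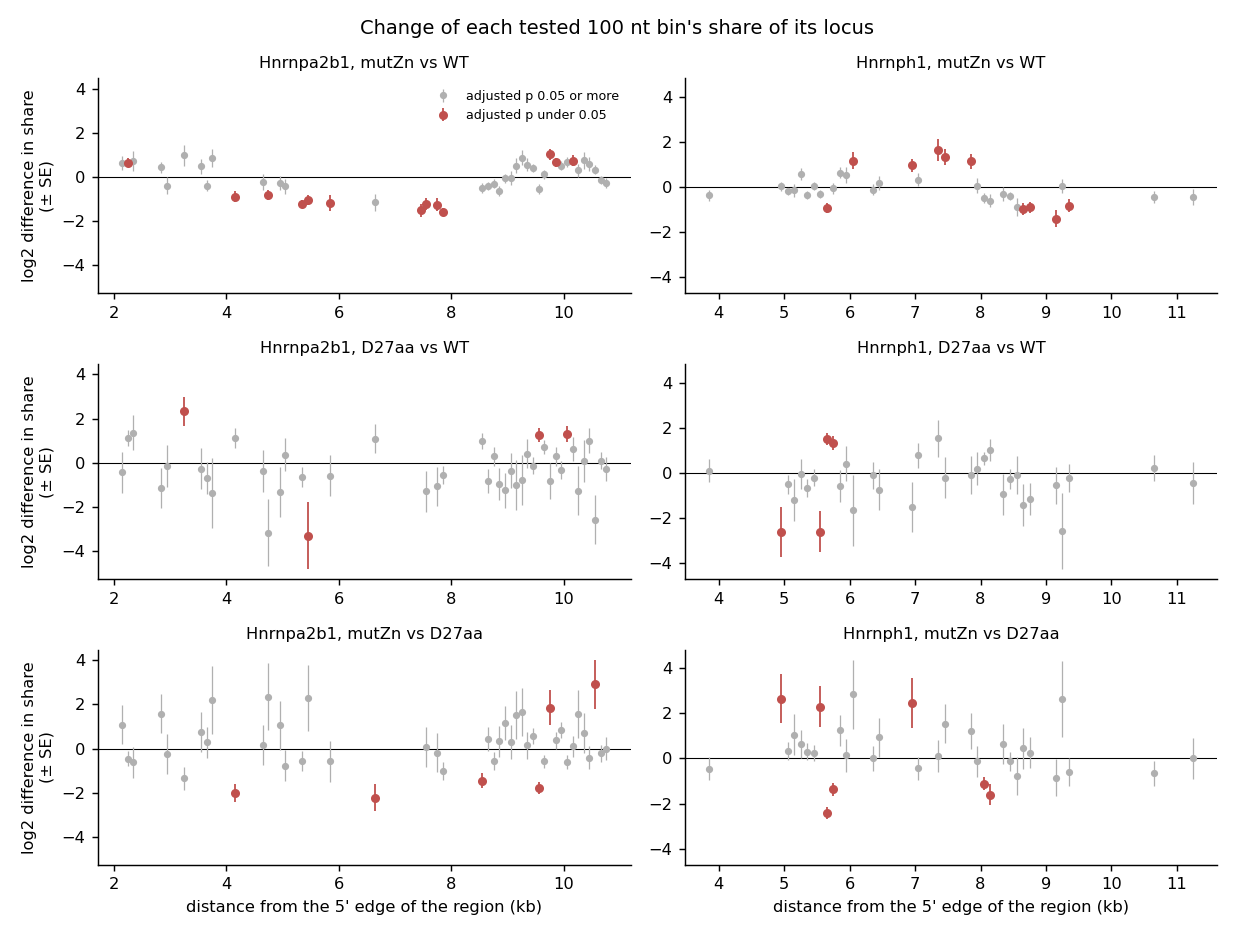
Log2 difference in the share of the locus (vertical axis) for each tested 100 nt bin of Hnrnpa2b1 and Hnrnph1 against distance from the 5′ edge of the region (horizontal axis, kb), in the 3 comparisons of anti-EGFP libraries. Bars are ± SE, red marks an adjusted p under 0.05, and bins with 0 events in D27aa have no finite difference and are not drawn. In mutZn against WT, 4 bins of Hnrnpa2b1 lay past the threshold above 0 and 9 below, and 5 and 5 of Hnrnph1.

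Hnrnph1, whose product binds runs of G, showed the sharpest feature of the 5 genes. Its leading bin, chr11:50193601-50193700, held 16.9%, 6.41% and 7.16% of the locus in WT 2, 3 and 4 (20, 36 and 148 events), 4.11% and 4.24% in mutZn (219 and 125 events) and 22.4% and 22.5% in D27aa (48 and 50 events). Both D27aa libraries were above all WT libraries, and both mutZn libraries were below them. The share rose in D27aa against WT by 1.51 ± 0.26 on the log2 scale (SE; adjusted p = 6.83e-05) and fell in mutZn against WT by 0.92 ± 0.23 (adjusted p = 0.00579). The difference between mutZn and D27aa was -2.43 ± 0.26 (adjusted p = 4.83e-11). Without WT 2, the differences from WT were 1.69 for D27aa (adjusted p = 2.08e-10) and -0.74 for mutZn (adjusted p = 0.000502).

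With the sequencing run as a block, D27aa remained above WT in this bin (1.30, adjusted p = 0.0103) and mutZn below D27aa (-2.12, adjusted p = 0.000313), while the call for mutZn against WT was lost (-0.82, adjusted p = 0.13). That call was also lost without mutZn 3 or mutZn 4. With each nucleotide counted once, D27aa against WT was 1.16 (adjusted p = 0.0958).

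The excess in D27aa sat partly at 1 nucleotide. Position 50193622 had 17 and 15 events in D27aa 1 and 2, which were 35.4% and 30% of the bin, and 9 of the 20 events of the bin in WT 2. It had 0 events in WT 3, WT 4 and mutZn 4 and 1 in mutZn 3, although these libraries had 36 to 219 events in the bin. In anti-SRSF7 libraries it had 4 events in GFP_OE 4, 2 in endo_OE 5 and 3 in endo_WT 1, and in piCLIP 3 in mono_IP 1 and 1 in poly_IP 1. In WT 3, WT 4, mutZn 3 and mutZn 4 the highest nucleotides of the bin were 50193603, 50193602, 50193604 and 50193605, about 20 nt upstream, with 5, 12, 12 and 10 events. The high nucleotide thus differed between WT 2 and the other WT libraries, and a nucleotide chosen for its height gets no test.

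The next bin of Hnrnph1, chr11:50193701-50193800, held 13.6%, 4.80% and 4.93% of the locus in WT, 5.23% and 5.60% in mutZn and 14.95% and 13.1% in D27aa. WT 2 fell among the D27aa libraries here. D27aa was above WT by 1.31 ± 0.30 (SE; adjusted p = 0.00483) and mutZn below D27aa by -1.37 ± 0.28 (adjusted p = 0.000547), and both calls were lost without D27aa 1 and with the run as a block, the first also without WT 4 or D27aa 2 and with each nucleotide counted once, the second also with diffSplice. The pair of bins together held 30.5%, 11.2% and 12.1% in WT, 9.34% and 9.84% in mutZn and 37.4% and 35.6% in D27aa. In anti-SRSF7 libraries the pair held 19.6% and 19.8% for GFP_OE and 23.1% for endo_WT, and without UV it held 6.82% for WT and 13.3% for mutZn.

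Downstream of this pair, mutZn spread into a stretch that WT hit less. From 50193901 to 50196000, the share was 9.32%, 14.6% and 16.1% in WT, 28.0% and 26.7% in mutZn and 12.2% and 15.3% in D27aa. The mutZn libraries were above all others in this stretch, and 5 of its 10 tested bins rose in mutZn against WT while 0 fell. The largest rise was at 50195301-50195400, from 0, 2 and 9 events in WT 2, 3 and 4 to 64 and 39 in mutZn, or 1.64 ± 0.49 on the log2 scale (SE; adjusted p = 0.00629, lost without WT 4 and with the run as a block). That bin was not tested without mutZn 3 or mutZn 4 or with each nucleotide counted once. Further on, from 50196001 to 50197400, the share was 25.4%, 26.3% and 23.6% in WT, 16.1% and 16.3% in mutZn and 23.4% and 22.5% in D27aa, and 4 of 10 tested bins fell in mutZn against WT. Its third-ranking bin of the locus, 50196001-50196100, held 5.01% and 4.72% in mutZn and 11.2% and 9.91% in D27aa (-1.11 ± 0.29, SE; adjusted p = 0.00826, lost without any 1 of the 4 libraries, with the run as a block and with diffSplice). The largest fall in mutZn against WT was at 50197101-50197200 (-1.40 ± 0.36, SE; adjusted p = 0.00781, lost without mutZn 3 and with the run as a block). It was not tested without WT 3 or WT 4 or with each nucleotide counted once. The edges of these stretches were drawn after the profiles had been seen, so they are descriptions.

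Upstream of the pair, D27aa was nearly empty at 50192901-50193000, with 2 and 0 events of 214 and 222. WT had 2, 18 and 58 events there and mutZn 161 and 79. Over the summed libraries D27aa had 0.162 times the share of WT (exact 95% interval 0.0192 to 0.604, counting error only), with an adjusted p of 0.039 against WT and 0.0153 against mutZn (lost without mutZn 3 or D27aa 2, with the run as a block, with diffSplice and with each nucleotide counted once). The call against WT was lost in 9 of 10 alternative settings, the one without WT 2 being the exception.

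**Figure D3:**
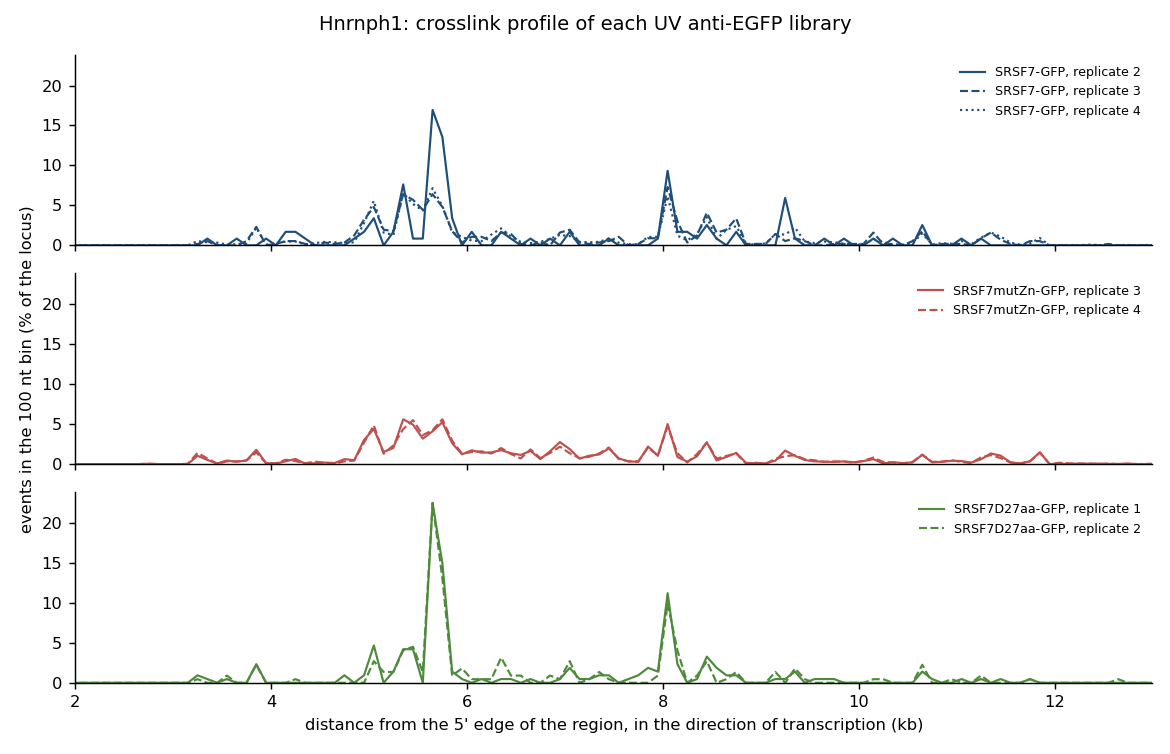
Share of all Hnrnph1 events (vertical axis, percent) in each 100 nt bin against distance from the 5′ edge of the region (horizontal axis, kb), in panels for WT, mutZn and D27aa with 1 line per library. The bin that starts 5600 nt from the edge held 22.4% and 22.5% of the events in D27aa, 16.9%, 6.41% and 7.16% for WT, and 4.11% and 4.24% for mutZn.

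The number of bins needed to hold 50% of the Hnrnph1 events was 5, 10 and 11 in WT 2, 3 and 4, 15 and 15 in mutZn and 4 and 4 in D27aa. Events were thus packed most tightly in D27aa and WT 2, the shallowest libraries, and low depth by itself lowers this number. For Hnrnpa2b1 the numbers were 10, 15 and 15 in WT, 14 and 14 in mutZn and 9 and 9 in D27aa.

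In Hnrnpa2b1, which encodes both the A2 and the B1 protein, events were gathered toward the 3′ side of the region. The stretch 51411201-51413500 held 59.5%, 49.5% and 53.2% of the locus in WT, 60.7% and 61.5% in mutZn and 62.7% and 62.6% in D27aa. Its 3 leading bins began at 51412401, 51412301 and 51411901. The middle of the locus, 51414101-51417900, held 22.1%, 33.4% and 30.2% in WT, 17.2% and 17.9% in mutZn and 16.0% and 20.4% in D27aa. Both mutant proteins were below all WT libraries there.

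Of 13 tested bins in this middle stretch, 9 fell in mutZn against WT and 0 rose. The edges of the stretch were drawn after the profiles had been seen, so this count is a description. The deepest fall was at 51414101-51414200, with 4.58%, 4.37% and 4.25% in WT 2, 3 and 4 (6, 28 and 103 events) and 1.36% and 1.57% in mutZn (126 and 80 events). The WT libraries hardly differed from each other, and the log2 difference was -1.57 ± 0.18 (SE; adjusted p = 6.01e-09). It was -1.43 with the run as a block (adjusted p = 0.000564) and -0.83 with each nucleotide counted once (adjusted p = 0.0745). Next to the leading bins, the share of 51412201-51412300 rose in mutZn, from 0, 5 and 42 events in WT to 262 and 168 (1.04 ± 0.25, SE; adjusted p = 0.00108). Without WT 4 the difference was 2.23 (adjusted p = 0.00366), and with each nucleotide counted once it was 0.77 and the call was lost (adjusted p = 0.134). GFP_OE and endo_WT, which share no library with these, held 18.8% and 18.6%, and 20.2%, in the middle stretch, closer to mutZn than to WT 3 and WT 4. The no-UV libraries also lay below WT 3 and WT 4 there, with 15.3% for WT (11 events) and 22.2% for mutZn (12 events). In 51411201-51413500 they held 61.1% and 59.3%.

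D27aa held a larger share than WT in the leading bin of Hnrnpa2b1. The bin 51412401-51412500 held 6.87%, 5.15% and 3.84% in WT, 3.02% and 3.11% in mutZn and 13.1% and 8.09% in D27aa (9, 33 and 93, 280 and 158, and 32 and 19 events). Again both D27aa libraries were above all WT libraries and both mutZn libraries were below. The share rose in D27aa against WT by 1.25 ± 0.30 (SE; adjusted p = 0.0079), and mutZn differed from D27aa by -1.80 ± 0.28 (adjusted p = 7.04e-06). Both calls were lost without D27aa 1 and with the run as a block, the first also without WT 4 and with each nucleotide counted once. With the run as a block the values were 0.93 (adjusted p = 0.245) and -1.38 (adjusted p = 0.0601). The second-ranking bin, 51412301-51412400, held 3.82% to 5.46% in WT, 5.40% and 4.96% in mutZn and 8.20% and 7.23% in D27aa and passed in 0 of the 3 comparisons.

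In the third-ranking bin, 51411901-51412000, the shares were 9.16%, 2.03% and 2.64% in WT, 4.46% and 4.79% in mutZn and 6.56% and 7.66% in D27aa. WT 2 was the highest of the 7 libraries. D27aa was above WT by 1.30 ± 0.35 (SE; adjusted p = 0.027) and by 1.503 without WT 2 (adjusted p = 0.000595), and the call was lost without WT 3, WT 4, D27aa 1 or D27aa 2, without the no-UV nucleotides, with the run as a block and with each nucleotide counted once. The highest nucleotide of this bin in 6 of the 7 libraries was 51411998, with 15.6% to 38.9% of the bin in those 6. It had 4, 1 and 10 events in WT, 65 and 63 in mutZn and 6 and 7 in D27aa. It also had 6 and 4 events in GFP_OE 3 and 4, 7 in endo_WT 1 and 2 in mono_IP 1, 1 event without UV for WT, and 0 without UV for mutZn and D27aa. In contrast to the Hnrnph1 nucleotide, it was hit in each of the 7 anti-EGFP UV libraries.

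D27aa had 0 events in both libraries at 51414501-51414600, where WT 2, 3 and 4 had 0, 15 and 36 events. Against the floor of 3 events in the 479 of both D27aa libraries (0.626%), the share was at least 2.55-fold lower than in WT (adjusted p = 0.0291), a call that was lost without D27aa 1 or D27aa 2, with the run as a block and with diffSplice. The same bin fell in mutZn (51 and 30 events) by 1.503 ± 0.30 (SE; adjusted p = 0.000553, lost without mutZn 3). In both comparisons this bin was not tested without WT 3, without WT 4 or with each nucleotide counted once. Toward the 5′ side, 51418701-51418800 rose in D27aa, from 1, 2 and 9 events in WT to 5 and 4 (2.32 ± 0.66, SE; adjusted p = 0.0442). Between mutZn and D27aa the largest fall was at 51415301-51415400 (-2.23 ± 0.61, SE; adjusted p = 0.0359) and the largest rise at 51411401-51411500, where D27aa had 1 and 1 events and mutZn 315 and 139 (adjusted p = 0.00567). These last 3 calls were lost without D27aa 1 or D27aa 2, with the run as a block and with each nucleotide counted once. The first of them was also lost without WT 3 or WT 4 and with a lower minimum for bins, the second without mutZn 4 and the third with diffSplice.

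**Figure D4:**
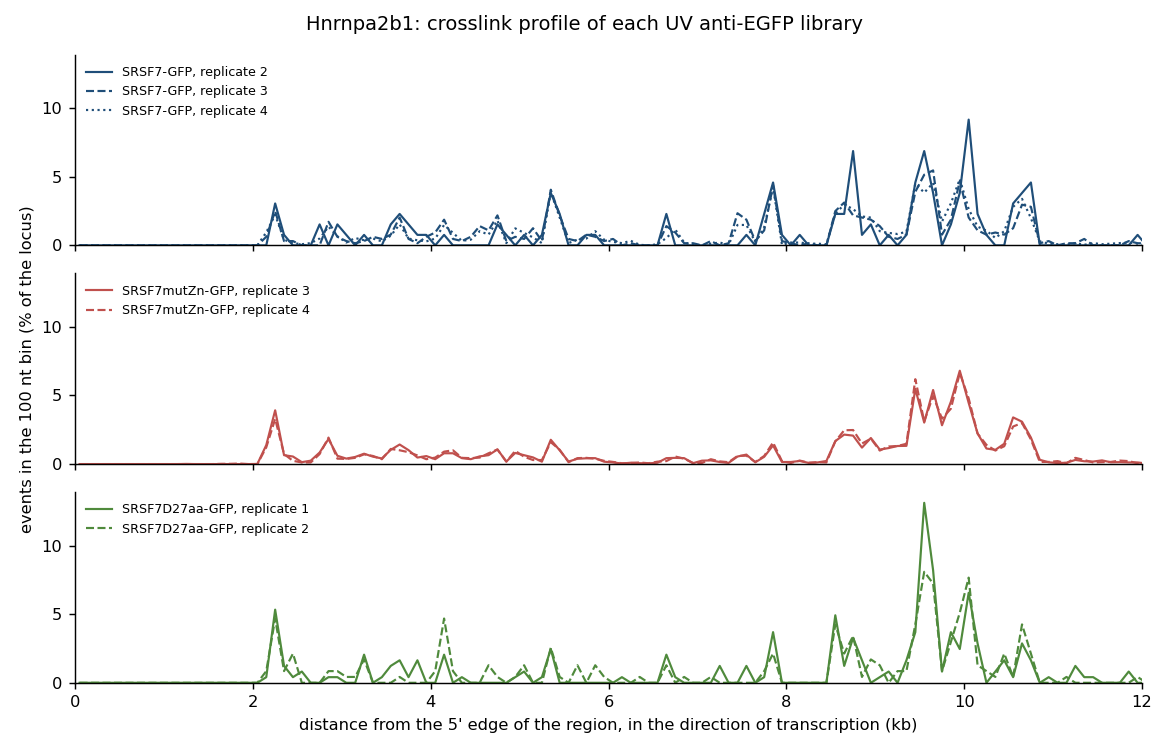
Share of all Hnrnpa2b1 events (vertical axis, percent) in each 100 nt bin against distance from the 5′ edge of the region (horizontal axis, kb), in panels for WT, mutZn and D27aa with 1 line per library. The bin that starts 9500 nt from the edge held 13.1% and 8.09% in D27aa and 3.02% and 3.11% in mutZn, and the bin at 7800 nt held 4.25% to 4.58% in WT and 1.36% and 1.57% in mutZn.

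Hnrnpa1, the closest relative of Hnrnpa2b1 among the 5, also had its events gathered near the 3′ side. The stretch 103076101-103077100 held 53.1%, 26.6% and 30.6% in WT, 25.1% and 26.8% in mutZn and 46.2% and 42.2% in D27aa. WT 2, with 32 events in the gene, again fell with D27aa. The leading bin, 103076701-103076800, held 3, 14 and 38 events in WT, 85 and 58 in mutZn and 11 and 8 in D27aa. As shares these were 9.38%, 7.04% and 5.68%, 4.21% and 5.19%, and 21.2% and 12.5%, so the 3 anti-EGFP groups did not overlap. A high share was not particular to D27aa. In anti-SRSF7 libraries the bin held 3 of 13 and 7 of 42 events in GFP_OE 3 and 4 and 7 of 19 in endo_WT 1. D27aa was above WT by 1.42 ± 0.41 (SE; adjusted p = 0.0465) and mutZn below D27aa by -1.84 ± 0.37 (adjusted p = 0.00203). The call against WT was lost in 9 of 10 alternative settings, the one without WT 2 being the exception, and with diffSplice it was 0.57 (adjusted p = 0.567). The call between the mutants was lost without D27aa 1, with the run as a block and with diffSplice.

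The second-ranking bin of Hnrnpa1, 103076101-103076200, held 12.5%, 5.03% and 4.48% in WT, 3.66% and 4.03% in mutZn and 9.62% and 10.9% in D27aa, and it passed in 0 comparisons. In the third, 103076201-103076300, the share fell in mutZn, from 5, 6 and 36 events in WT to 45 and 30 (-1.13 ± 0.30, SE; adjusted p = 0.0105), a call lost without WT 4 or mutZn 3, with the run as a block (adjusted p = 0.25) and with each nucleotide counted once (adjusted p = 0.15). On the 5′ side, 103070901-103071000 rose in mutZn, from 0, 3 and 17 events to 102 and 49 (1.12 ± 0.37, SE; adjusted p = 0.0244, lost without WT 3 or WT 4 and with the run as a block). That bin was not tested without mutZn 3 or mutZn 4 or with each nucleotide counted once. D27aa gained at 103076901-103077000, where it had 3 and 5 events against 0, 2 and 9 in WT (2.50 ± 0.71, SE; adjusted p = 0.0446, lost without WT 3, WT 4 or D27aa 1, with the run as a block, with a lower minimum for bins and with diffSplice, where adjusted p = 0.189). This last bin was not tested without D27aa 2 or with each nucleotide counted once.

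Hnrnpk, a gene for a protein with KH domains, lost share in mutZn at 2 nearby bins. The bin 58495901-58496000 held 11.1%, 6.15% and 4.96% in WT (3, 11 and 34 events), 1.63% and 1.15% in mutZn (35 and 13 events) and 7.55% and 8.0% in D27aa (4 and 4 events). All mutZn values were below all others. The difference from WT was -1.88 ± 0.31 (SE; adjusted p = 2.3e-05), and this call held in all 11 alternative settings in which the bin was tested, among them the run as a block (-2.21, adjusted p = 0.00363) and each nucleotide counted once (-1.60, adjusted p = 0.0123). Against D27aa it was -2.41 ± 0.58 (SE; adjusted p = 0.0163), lost without D27aa 1 or D27aa 2, with the run as a block, with diffSplice and with each nucleotide counted once.

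The leading Hnrnpk bin lay 200 nt away, at 58496101-58496200, with 14.8%, 3.91% and 3.64% in WT, 1.81% and 1.41% in mutZn and 11.3% and 6.0% in D27aa. It too fell in mutZn against WT (-1.27 ± 0.33, SE; adjusted p = 0.0111), and the call was lost without WT 4, mutZn 3 or mutZn 4, with the run as a block (-1.43, adjusted p = 0.0808), with diffSplice (adjusted p = 0.0566) and with each nucleotide counted once (adjusted p = 0.0895). Against D27aa it was -2.38 ± 0.56 (SE; adjusted p = 0.0128), a call that held in 5 alternative settings and was lost in 4. The third-ranking bin, 58499201-58499300, held 2.98% and 2.29% in mutZn against 3.70% to 5.03% in WT and passed in 0 comparisons. In mutZn 3 and mutZn 4, 17 of 64 and 5 of 26 of its events sat at nucleotide 58499300. In endo_WT, the bin at 58495901 held 7 of 33 events, or 21.2%, above the 7 anti-EGFP UV libraries.

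In Ptbp1 the level rose in mutZn while 0 of its 7 tested bins rose. Its central stretch, 79321601-79322800, held 36.0%, 37.9% and 30.7% of the locus in WT, 24.9% and 24.2% in mutZn and 31.1% and 43.8% in D27aa. Of 6 tested bins in this stretch, whose edges were drawn after the profiles had been seen, 2 fell in mutZn against WT. One was the third-ranking bin of the locus, 79322601-79322700, with 1, 11 and 32 events in WT and 71 and 23 in mutZn (-1.02 ± 0.29, SE; adjusted p = 0.0213), and the other began at 79321701 (-0.99 ± 0.31, SE; adjusted p = 0.0408). The first of these calls was lost without WT 3, WT 4 or mutZn 4 and with each nucleotide counted once. For the second, alternative settings are not given, so its stability is not known here. The leading bin, 79322501-79322600, held 8.0%, 5.88% and 5.07% in WT, 4.90% and 4.73% in mutZn and 8.89% and 6.25% in D27aa, and passed in 0 comparisons, like the second, 79321901-79322000. D27aa had 45 and 48 events in the whole gene, and 0 of its 7 tested bins passed against WT or mutZn.

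**Figure D5:**
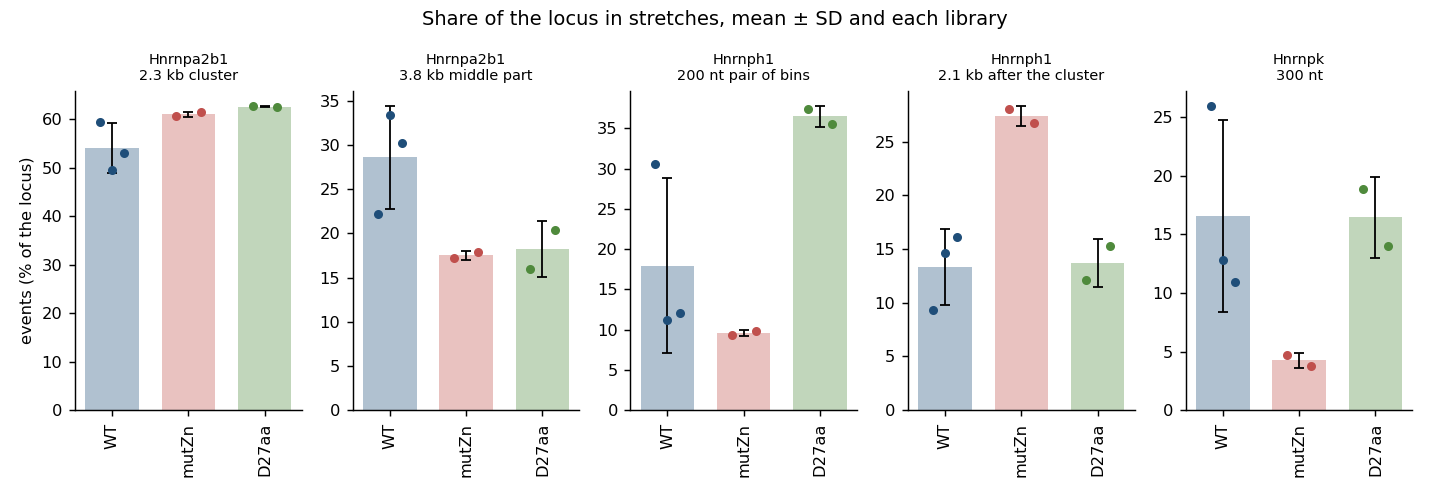
Share of the locus (vertical axis, percent) held by 5 stretches: the 3′ cluster and the middle of Hnrnpa2b1, the leading pair of bins and the stretch after it in Hnrnph1, and the 300 nt around the leading bins of Hnrnpk. Bars are the mean ± SD of WT, mutZn and D27aa and dots are libraries. The Hnrnph1 pair stood at 37.4% and 35.6% in D27aa, at 30.5% in WT 2 and at 9.34% to 12.1% in the other WT and the mutZn libraries.

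The deposited peak lists, made by the authors from scores summed over the libraries of a group, placed 5233 peak nucleotides of the WT list in the 5 loci, 5592 of the mutZn list and 282 of the D27aa list. These were 0.256%, 0.249% and 0.811% of the nucleotides in each list. Hnrnpa2b1 had 1664, 1921 and 141 of them, Hnrnph1 1396, 1367 and 101, Hnrnpa1 921, 923 and 23, Hnrnpk 802, 806 and 14, and Ptbp1 450, 575 and 3. The groups differ in depth and the lists in length, so the numbers of peaks are not compared between lists. Of the D27aa peaks in the 5 loci, 86.5% were also WT peaks at the same nucleotide and 82.6% were mutZn peaks. These were 4.66% and 4.17% of the WT and mutZn peaks in the 5 loci. WT and mutZn shared 3050 peaks there, 58.3% of the WT peaks and 54.5% of the mutZn peaks. Overlap over the whole lists was not computed, so these shares are not read as particular to the 5 genes. The highest peak score was 62 in WT and 128 in mutZn, both in Hnrnpa2b1, and 32 in D27aa, in Hnrnph1. For WT, 49.9% of these peak nucleotides had an event in the 3 WT libraries used here, against 100% for mutZn and D27aa, and the header of the WT list names 4 libraries. The no-UV lists had 5 peaks for WT, all in Hnrnpa2b1, 2 for mutZn, both in Hnrnpa1, and 0 for D27aa.

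Anti-SRSF7 precipitation from SRSF7-GFP OE cells was compared with anti-EGFP precipitation, and 0 of 5 genes passed, where 1.48% of all loci and windows did. Hnrnpa1 had 103 and 89.1 CPM in GFP_OE 3 and 4 and 89.9 in endo_WT 1, below the 144.5 to 181 of WT, with a log2 difference of -0.72 ± 0.59 (SE; adjusted p = 0.595) for GFP_OE against WT. Hnrnph1 had 403 and 407 CPM in GFP_OE, also below the WT libraries (-0.28 ± 0.56, adjusted p = 0.856). None of the 5 had an unadjusted p under 0.05, and limma-voom called Hnrnpa1 alone. In endo_WT, with 1 library, Hnrnpa2b1 and Hnrnph1 each had 104 events, or 492 CPM (exact 95% binomial interval 402 to 596).

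In the anti-SRSF7 series, endo_OE and RRM_OE each were set against GFP_OE, where 4 of the 5 genes could be tested. Hnrnpa2b1 had 538 and 419 CPM in endo_OE 4 and 5 (18 and 35 events) and 113 and 442 in RRM_OE 3 and 4 (2 and 19 events). Hnrnph1 had 658 and 527 in endo_OE and 789 and 419 in RRM_OE, from 14 to 44 events. RRM_OE thus had more events in Hnrnph1 than in Hnrnpa2b1 in library 3 and slightly fewer in library 4. Of all 441 loci and windows, 0.0% passed in either comparison, with 12 at an unadjusted p under 0.05 for RRM_OE and 7 for endo_OE, among them 0 of the 4 genes, and limma-voom called 0 of the 4. The libraries without antibody and without UV had 2 and 1 events in Hnrnph1 and 0 and 2 in Hnrnpa2b1.

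The piCLIP libraries gave few events in these genes. Hnrnpa2b1 had 53 and 13 events in mono_IP 1 and 2 and 8 and 0 in poly_IP 1 and 2. Hnrnph1 had 34 and 5 in mono_IP and 16 and 1 in poly_IP. The 0 events of poly_IP 2 in Hnrnpa2b1 allow a level of up to 164 CPM. In CPM the mono_IP libraries stood at 1012 and 407.5 in Hnrnpa2b1, a wide spread within 1 group, and 0 of the 3 genes tested for poly against mono passed, where 0.0% of 266 loci and windows did. By the unadjusted p, 14 of the 266 were under 0.05 and 0 of the 3 genes, and limma-voom called 0 of them. The IgG libraries had 1 event in Hnrnpa2b1 for mono, and 3 in Hnrnph1 and 1 in Ptbp1 for poly.

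Many of the piCLIP events of Hnrnpk lay in 9 nucleotides at the 3′ edge of its region. Positions 58485161-58485169 held 5 of 12 and 13 of 18 events in mono_IP 1 and 2 and 0 of 1 and 6 of 13 in poly_IP 1 and 2. Among the 10 anti-EGFP iCLIP libraries, only mutZn 4 had an event there, 1 of 1134. Without this stretch, Hnrnpk had 134 and 157 CPM in mono_IP, within the range of 122 to 183 over WT and mutZn, and 43.3 and 382 in poly_IP. In the piCLIP peak list, made from the summed immunoprecipitates, 10 of the 21 peaks in the 5 loci were in Hnrnpk, 7 in Hnrnph1 and 4 in Hnrnpa2b1.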

How the data were processed

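The members and lists were chosen with earlier results of these data known. The deposited library files give a signed score at every nucleotide hit. Its size is the number of cDNAs on mm9 with Ensembl annotation and its sign the strand, per the file headers. CASAVA 1.4 is named in the submitters' processing notes, and the aligner is not given in the sources used here. Peaks were called by the authors with 100 permutations, a 15 nt neighbourhood and a false discovery rate of 0.05, per the file headers, on summed libraries.

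Groups and replicate numbers were taken from the sample titles, since the numbers in the headers differ for several libraries. In the headers, WT 3 and WT 4 share both replicate number 3 and the library identifier. The tests count them as separate replicates, and whether they came from separate cultures is not known. Absolute scores were summed over each locus and over all other windows of 5000 nt on 1 strand. Loci were compared in R 4.3.3 by a quasi-likelihood fit of negative binomial models, moderated by squeezeVar of limma 3.58.1 (scaling by a trimmed mean of log ratios), with features of at least 10 events at the median library total in 2 libraries and 15 in all. The 7 anti-EGFP UV libraries, the 4 piCLIP immunoprecipitates and the 7 anti-SRSF7 UV libraries were fitted together, and GFP_OE with WT for the antibody comparison. Adjustment was Benjamini-Hochberg over all features, with a threshold of 0.05.

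Bins of 100 nt (at least 4 CPM, events per 1000000 events of the library, and 20 events) were tested by the same model with the total of the locus or window as offset. The design had named voom with diffSplice of limma for bins. It made too many false calls on simulated data, so the offset model replaced it and diffSplice became an alternative, after the data had been seen. Adjusted p-values of bins come from this limma-moderated model. Named bins are the 3 with the largest mean share in each locus over the 7 libraries and the called bins with the largest rise and fall in each comparison. The edges of all stretches longer than 1 bin, the bin at 79321701 in Ptbp1 and single nucleotides were chosen after their values were seen. Intervals for 1 library are exact binomial at 95%, and the floor of a count of 0 is 3 events. Sequences are not shown because no mm9 genome was used here.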

Additional observations from a re-analysis of the deposited data

How the results depend on the processing

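For mutZn against WT, the 2 loci called became 0 with median-of-ratios scaling, 0 with no filter on low features, 1 (Hnrnph1) with each nucleotide counted once, 0 with the run as a block, and 0 to 3 when 1 library was left out. limma-voom called 3 loci for mutZn against WT, the third being Hnrnph1, 2 for mutZn against D27aa and 1 for GFP_OE against WT. Hnrnpa1 was near 0 in mutZn against WT and changed sign to 0.00061 with limma-voom, 0.013 with library totals alone, 0.16 with no filter, 0.017 with only the 2 groups and 0.017 without no-UV nucleotides, and ranged from -0.033 to 0.037 when 1 library was left out. Counting each nucleotide once turned Hnrnpa2b1 to -0.37 and Hnrnpk to -0.035 against WT, and Hnrnpa2b1 to -0.63 and Hnrnpa1 to -0.14 against D27aa. With no filter, D27aa against WT turned to -0.13 for Hnrnpa2b1 and -0.069 for Hnrnph1, and mutZn against D27aa to 0.062 for Hnrnph1. With the run as a block, Hnrnpa1 turned to 0.030 (D27aa against WT) and -0.040 (mutZn against D27aa). None of the loci that turned passed the threshold after turning, and the cause was not tested.

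The 29, 11 and 16 bins called became 3, 0 and 8 with each nucleotide counted once, when fewer bins were tested, 7, 1 and 2 with the run as a block, and 7 to 35, 1 to 15 and 3 to 13 when 1 library was left out. diffSplice called 41, 8 and 11. With the minimum for bins lowered, 6 bins passed in D27aa against WT. Counting once lowered the mean level of Hnrnpa2b1 from 659.6 to 492.1 CPM and that of Hnrnph1 from 517.0 to 397.4. Peaks with a score of at least 5 numbered 1011 (WT), 1219 (mutZn), 21 (D27aa) and 3 (piCLIP). Within 5 nt, 789 WT and 755 mutZn peaks had a D27aa peak.

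Same-numbered libraries are not shown to come from 1 culture. By the headers, some share a replicate number and a library identifier. These are WT 4 with mutZn 4, GFP_OE 4 with RRM_OE 4, and mono_IP with poly_IP of the same number. WT 3 and mutZn 3 share neither. The correlation of deviations between same-numbered libraries was -0.0 for mutZn and WT and 0.47 for poly_IP and mono_IP. It was 0.5 for RRM_OE and GFP_OE and 0.01 for GFP_OE and WT, over 2 pairs each. With the replicate block, which left WT 2 out, 3 loci and 39 bins passed in mutZn against WT, and 0 loci in the other 3 comparisons. Hnrnph1 then passed (-0.22, adjusted p = 0.0209 by the limma-moderated fit), and the Hnrnpa1 bin at 103076201 did not (-0.84, adjusted p = 0.0688).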

Other observations

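On the strand opposite to the gene, the 7 anti-EGFP UV libraries had 2.67% to 4.20% of the events of the 5 loci. These were unevenly spread over the genes. In Hnrnpa1 there were 4, 29 and 87 opposite-strand events in WT 2, 3 and 4, 214 and 115 in mutZn 3 and 4, and 3 and 5 in D27aa 1 and 2. Ptbp1 had 2, 20 and 57, 204 and 103, and 9 and 2 in the same order. Hnrnph1, with more events on its own strand than either, had 1, 5 and 10, 46 and 21, and 3 and 3. Neighbouring or overlapping genes named for these regions in the GRCm38.p6 gene table are Cbx5 and Nfe2 beside Hnrnpa1 and Plppr3 and E130317F20Rik at Ptbp1. No coordinates were carried over from that build, and the source of the opposite-strand events was not tested.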
